A study of Mus musculus with 8 samples.

Results

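Double positive mouse thymocytes labelled overnight control were compared with double positive thymocytes labelled control. Both kinds of sample were chosen by their titles, and they make up 4 of the 8 arrays of the study: 2 overnight control arrays and 2 control arrays. The other 4 arrays are 2 labelled Valpha2 and 2 labelled Vbeta5, names of variable segments of the T cell receptor (TCR). Total RNA was hybridised to Affymetrix arrays that carry 12488 probe sets. The titles number the arrays of each group 1 and 2, and in what follows the value of array 1 is always given before that of array 2. Strain, age, genotype, the length of the overnight step, the medium and what the Valpha2 and Vbeta5 samples received are not stated in the labels, so it is not known whether the arrays of a group come from separate animals or cultures. The p-values therefore measure the spread between arrays of a group, pooled over all 8 arrays, which may be technical.

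Double positive thymocytes carry both CD4 and CD8. Most of them are small resting cells that rearrange the TCR alpha chain with the recombinase RAG and die unless their receptor engages self peptide on MHC, while a part of them, the blasts that have just passed beta selection, still divide. Taken out of the thymus they lose the contacts and cytokines of the stroma. A fall of replication genes is one part of the difference between the groups here, and the account below is mainly of the other genes.

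Several markers of double positive thymocytes were bright in both groups. The summed signal of 11 such markers, among them Cd4, Cd8a, Cd8b1, Rag1, Dntt, Thy1 and Cd2, was 53255 and 56550 in the control samples. The sum was 66757 and 62091 in the overnight control samples. Of these genes 3 were higher (27.3%) and 2 lower (18.2%) without overlap, against 20.9% and 17.7% of all genes tested. The control arrays correlated with each other at r = 0.955 over probe sets and the overnight control arrays at r = 0.864. The SD of the log2 difference between the arrays of a pair was largest in overnight control, at 0.86. It was 0.52 in control, 0.65 in Valpha2 and 0.62 in Vbeta5, so the pooled spread understates that of overnight control. Overnight control array 1 stood apart. Its log2 ratio of the 3′ to the 5′ Gapdh control probe set was 0.95, against -0.24 on overnight control array 2 and -0.09 and -0.28 on the control arrays, and 12.2% of its signals lay under 17, against 24.2% to 24.7% on the other 3. Array 1 of Valpha2 and array 1 of Vbeta5 also had a raised Gapdh ratio, of 1.72 and 0.48. Results are therefore given with all arrays and, where they rest on it, without overnight control array 1. Fewer cells of a type and less RNA per cell cannot be told apart in such bulk samples.

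Against control, 18 of 8281 probe sets passed the test (0.217%; limma, Benjamini-Hochberg adjusted p under 0.05), of which 2 rose (0.0242%) and 16 fell (0.193%). Signals were compared as log2(signal + 17), in which folds of dim genes are understated, and differences are given ± SE as overnight control minus control. The 18 probe sets name 17 genes and leave 1 probe set without a gene name. The genes that rose were Timp1 and Ctla4. Of the 15 genes that fell, 10 belong to lists of DNA replication and mitosis genes, and the others were Tcf19, Pclaf, Tnk2, Tuba1a and Tmpo. Under quantile normalization 10 probe sets passed, 0 up and 10 down. With overnight control array 1 left out limma called 0, and the 18 probe sets then had adjusted p-values from 0.102 to 0.217. That fit sets 1 overnight control array against the 2 control arrays, takes the spread from the other groups (3 residual degrees of freedom) and assumes that the lone array varies as they do. The differences themselves were then 0.72 to 1.09 times those with all arrays, with Mcm5 going from -2.14 to -2.17 and Tcf19 from -3.36 to -3.68. With array 1 of overnight control, Valpha2 and Vbeta5 all left out, 84 passed, 15 up and 69 down, but the control pair alone then gives the residual spread (1 degree of freedom), so that this count is no check on the overnight control samples. Leaving out either control array also gave 0 calls, and leaving out overnight control array 2 gave 123. All 18 differed from the control mean in the same direction on both overnight control arrays. They were chosen on these same arrays, so that the shared direction is no separate check.

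Timp1, a secreted inhibitor of matrix metalloproteinases, had the larger rise. Its signal was 57.0 and 109 on the control arrays and 677 and 421 on the overnight control arrays. The log2 difference was 2.51 ± 0.37 (adjusted p = 0.0307). The 4 Valpha2 and Vbeta5 arrays gave 261 to 417, between the 2 groups. Without overnight control array 1 the difference was 2.18 (adjusted p = 0.197). Ctla4, an inhibitory receptor that competes with CD28 for its ligands on antigen presenting cells, was near the lower end of the scale in control, at 48.2 and 23.5. It reached 239 and 196 in overnight control, a log2 difference of 2.18 ± 0.36 (adjusted p = 0.0497). Without overnight control array 1 the difference was 2.05. Ctla4 did not pass under quantile normalization (adjusted p = 0.0893) or after scaling to a common median (adjusted p = 0.0581). The 4 other arrays lay at 133 to 215 for Ctla4, above both control arrays.

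Among the falls outside the replication and mitosis lists, the lowest difference was that of Tcf19, a gene of growing cells with a role at the entry into S phase. Its signal fell from 466 and 372 to 35.4 and 16.9, a log2 difference of -3.36 ± 0.44 (adjusted p = 0.0191). Pclaf, which binds the replication clamp PCNA, fell from 1378 and 1381 to 130 and 209 (-2.94 ± 0.38, adjusted p = 0.0191). For both genes the Valpha2 and Vbeta5 arrays, at 35.6 to 59.9 for Tcf19 and 67.4 to 180 for Pclaf, lay with overnight control.

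Tnk2 encodes ACK1, a non-receptor tyrosine kinase that binds the GTPase CDC42, and is in none of the cell cycle lists. It fell from 2018 and 1905 to 351 and 562 (-2.10 ± 0.29, adjusted p = 0.0232). The difference was -1.77 without overnight control array 1 (adjusted p = 0.141), and the 4 other arrays gave 370 to 561.

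The remaining falls outside the replication lists were those of Tuba1a and Tmpo, given here with the microtubule gene Stmn1 of the mitosis list. The probe set of Tuba1a, an alpha tubulin, fell from 6374 and 5372 to 1828 and 1900 (-1.64 ± 0.23, adjusted p = 0.0265). It belongs to a class of probe sets that can also read related family members, so the tubulin gene behind the signal is uncertain. A second Tuba1a probe set differed by -1.08 (adjusted p = 0.0819), and the Tuba1c probe set, also of the family class, by -1.26 (adjusted p = 0.0662). Stmn1, or stathmin, which takes tubulin dimers out of microtubule growth, fell from 6847 and 6925 to 2813 and 3097 (-1.22 ± 0.20, adjusted p = 0.0497). Tmpo encodes the lamina associated proteins of the LAP2 family and is named thymopoietin. It fell from 1935 and 2307 to 661 and 824 (-1.50 ± 0.23, adjusted p = 0.0307). The probe sets of Tmpo did not move as one: a second differed by -1.78 (adjusted p = 0.117) and another by 0.42 (adjusted p = 0.819).

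**Figure D1:**
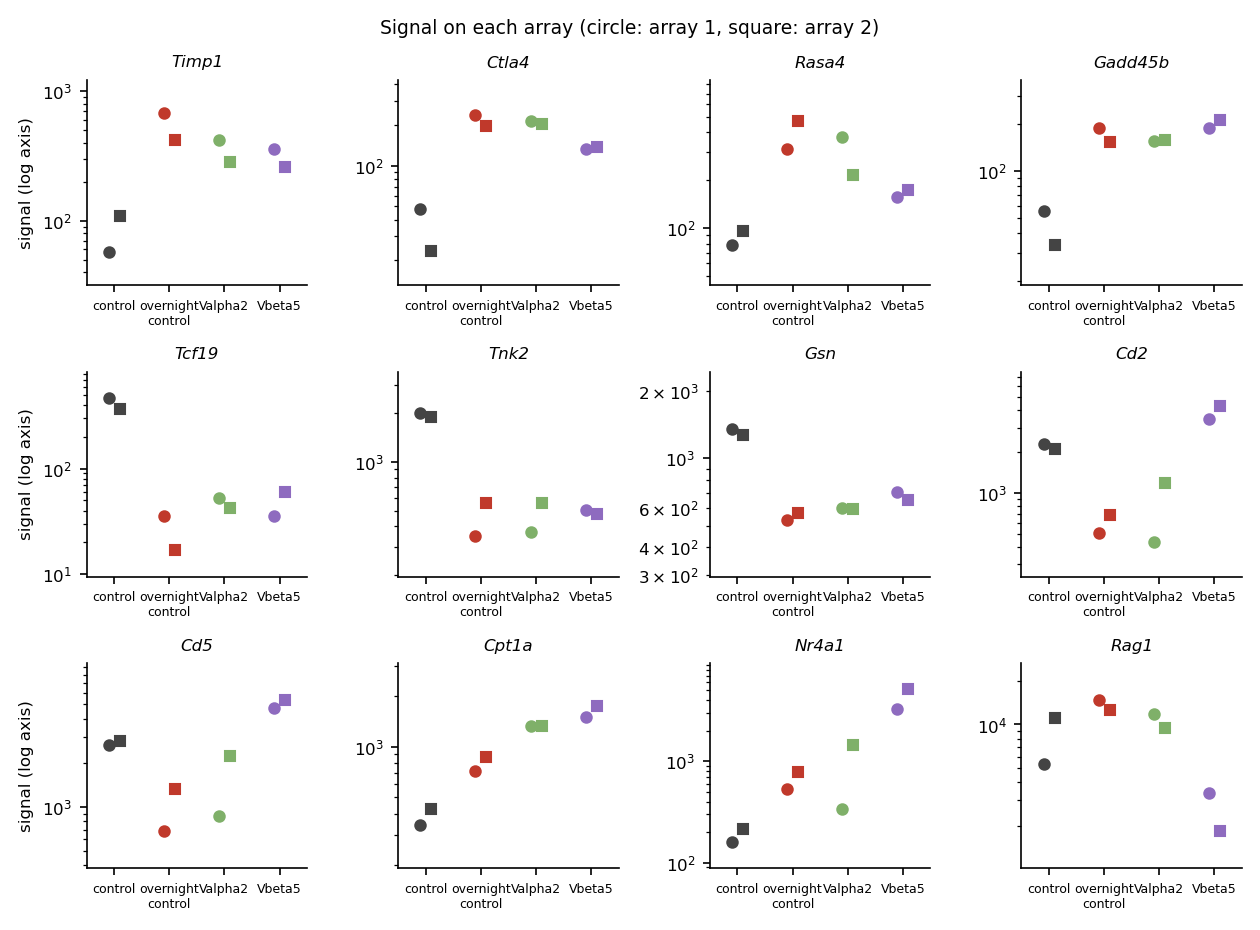
Signal of 12 genes on each of the 8 arrays (log axis), with circles for array 1 and squares for array 2 of a group. Timp1 and Ctla4 rose and Tcf19 and Tnk2 fell in overnight control against control, while the other 8 genes did not pass the test. Cd2, Cd5 and Nr4a1 reach their highest signals on the Vbeta5 arrays.

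The replication and mitosis genes are given here by their lists, in which each gene counts once through its brightest probe set. Over all 6102 genes the median difference was 0.08, with 20.9% of genes higher and 17.7% lower on both overnight control arrays than on both control arrays. These shares are the background for every count of genes without overlap given below. Of 16 replication licensing genes 4 fell, Mcm5, Cdc6, Mcm3 and Mcm4, and the median of the list was -1.29. Cdc6, which loads the MCM helicase on origins, fell from 534 and 636 to 102 and 79.4 (-2.49 ± 0.34). Of 29 replication fork and chromatin assembly genes 2 fell, Uhrf1 and Asf1b (median -1.05), and of 11 nucleotide synthesis genes 2 fell, the ribonucleotide reductase subunits Rrm1 and Rrm2 (median -0.59). Rrm2 gave the lowest difference of all probe sets that passed, from 1719 and 2136 to 87.0 and 274 (-3.48 ± 0.46). Of 35 mitosis genes 2 fell, Stmn1 and the spindle checkpoint gene Mad2l1 (-2.40 ± 0.40), the median was -1.30, and 31 were lower on both overnight control arrays. Without overnight control array 1 the 4 medians were -1.12, -1.05, -0.79 and -1.35 in the same order. Mki67, the marker of cycling cells, did not pass, at 1095 and 1289 in control and 248 and 312 in overnight control (-2.03, adjusted p = 0.0662), nor did its second probe set (1.00, adjusted p = 0.594). A second Mcm5 probe set also ran the other way (0.90, adjusted p = 0.661), while a second one for Mcm3 gave -1.93 (adjusted p = 0.117).

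The promoters of the fallen genes outside the classical replication machinery were set beside those of the replication genes. E2F factors bind a short GC-rich motif and drive genes needed for S phase. RefSeq windows of 300 bases, from 250 before to 50 after the transcription start (build GRCm38.p6), were found for 13 of the 15 fallen genes, and 6 of them hold 1 of the 4 E2F motif forms TTTCCCGC, TTTGGCGC, TTTCGCGC and TTTGCCGC on either strand. They are Pclaf, Tmpo, Uhrf1, Mcm5, Cdc6 and Mcm3. Of 27025 genes with such a window, 2.60% hold a match, and of 32851 windows 2.26%. In Mcm5 forms on both strands overlap. The windows of Tcf19, Tnk2 and Tuba1a, and of Rrm1, Rrm2, Asf1b and Mad2l1 of the replication and mitosis lists, hold none of these letters. The windows of Timp1 and Ctla4 were searched for the AP-1 motif TGACTCA or TGAGTCA, which is in 5.20% of windows, and hold none. A match is a description of the sequence and does not show binding. The first 260 bases of 3 windows follow, 5′ to 3′ on the strand of the gene, with the E2F motif in capitals, because Pclaf and Tmpo lie outside the replication lists and Uhrf1 inside them. In Pclaf (chr9:65890073-65890332, plus strand) the motif starts at position -5 from the transcription start, in Tmpo (chr10:91170541-91170800, minus strand, the second of 2 annotated windows) at -195 and in Uhrf1 (chr17:56304063-56304322, plus strand, also the second of 2) at -185.
Pclaf: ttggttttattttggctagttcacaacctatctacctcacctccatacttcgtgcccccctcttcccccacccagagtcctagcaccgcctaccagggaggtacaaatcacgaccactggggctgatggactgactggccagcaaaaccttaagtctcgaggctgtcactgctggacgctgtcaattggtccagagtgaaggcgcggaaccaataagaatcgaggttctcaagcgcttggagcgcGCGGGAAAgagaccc
Tmpo: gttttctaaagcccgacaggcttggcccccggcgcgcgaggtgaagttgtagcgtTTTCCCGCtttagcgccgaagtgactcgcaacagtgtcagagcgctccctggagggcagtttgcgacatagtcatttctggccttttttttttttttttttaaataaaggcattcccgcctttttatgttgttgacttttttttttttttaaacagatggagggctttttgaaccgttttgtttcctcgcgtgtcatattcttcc
Uhrf1: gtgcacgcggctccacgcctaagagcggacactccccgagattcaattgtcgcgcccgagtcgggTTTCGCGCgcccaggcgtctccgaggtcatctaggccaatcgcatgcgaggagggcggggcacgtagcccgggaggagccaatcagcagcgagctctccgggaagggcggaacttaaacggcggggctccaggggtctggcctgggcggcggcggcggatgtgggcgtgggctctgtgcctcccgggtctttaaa

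G1 regulators and histone genes lay on the low side with no call. Of 14 genes of G1 cyclins, E2F factors and their partners none passed, 8 were lower and 2 higher without overlap, and the median was -0.56 (-0.70 without overnight control array 1). Ccnd3, the D-type cyclin that thymocytes need to divide after beta selection, went from 6248 and 5087 to 1204 and 2385 (-1.72 ± 0.38, adjusted p = 0.104). The difference was -1.24 without overnight control array 1 (adjusted p = 0.536). The repressor E2f8 differed by -1.74 (adjusted p = 0.127) and by -2.25 on a second probe set (adjusted p = 0.104). The E2F partner Tfdp1 differed by -1.45 (-0.69 without overnight control array 1), and its other probe sets gave -1.46 and -0.15. The kinase Cdk4 differed by -0.85, and by -0.79 on a second probe set. Of 10 tested histone and HMG genes none passed and the median was -0.65. The replacement histone H2az1 was at 2391 and 2898 against 831 and 1503, H2ax at 3567 and 3065 against 1414 and 1646. The chromatin protein Hmgb3 was at 1592 and 1615 against 791 and 709. The linker histone H1f2 differed the other way, at 105 and 47.9 against 219 and 434, a difference of 1.87 (adjusted p = 0.362).

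Several genes were high on both overnight control arrays without passing. Rasa4, a Ras GTPase activating protein controlled by calcium, was at 78.7 and 95.5 in control and 315 and 473 in overnight control (1.96 ± 0.35, adjusted p = 0.0662). Hsd17b11, a dehydrogenase of lipid droplets, was at 255 and 278 against 813 and 981 (1.68 ± 0.35, adjusted p = 0.0896). Without overnight control array 1 the differences were 2.24 for Rasa4 (adjusted p = 0.141) and 1.82 for Hsd17b11 (adjusted p = 0.263). Socs3, the feedback inhibitor of JAK and STAT signalling, was at 14.8 and 13.3 against 230 and 117 (2.55 ± 0.51, adjusted p = 0.086), so that its control signals lay under the offset. A second Socs3 probe set gave 1.53 (adjusted p = 0.499). Gadd45b, a stress gene that NF-kappaB induces, was at 55.5 and 33.6 against 190 and 154 (1.64, adjusted p = 0.0973), with 1.70 on a second probe set. Gzma, a serine protease of cytotoxic granules, was at 183 and 224 against 590 and 495 (1.34, adjusted p = 0.0946). Epb41l4aos, annotated as an antisense RNA of Epb41l4a, was at 332 and 354 against 832 and 742 (1.16, adjusted p = 0.0807).

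Below the calls on the low side stood Plk4, the kinase that starts centriole duplication (-1.99, adjusted p = 0.0561), and Gsn. Gsn encodes gelsolin, which severs and caps actin filaments, and was at 1357 and 1267 in control and 532 and 568 in overnight control (-1.23 ± 0.21, adjusted p = 0.0571). The groups were more than the within-group spread apart, and the 4 other arrays gave 596 to 704 for Gsn. Of 45 actin and adhesion genes none passed, and the median was 0.06. Without overlap 9 were higher (20%) and 10 lower (22.2%), near the shares over all genes. The tropomyosin gene Tpm4 was at 1013 and 950 against 458 and 305 (-1.35, adjusted p = 0.137), and the difference was -1.63 without overnight control array 1 (adjusted p = 0.242). The actin monomer binder Tmsb10 differed by -0.92, cofilin (Cfl1) by -0.78 and moesin (Msn) by -0.58. The alpha 4 integrin gene Itga4 was at 71.4 and 94.3 against 263 and 133 (1.05), and its second probe set gave 1.10.

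Several surface molecules and selection markers of T cells gave lower signals in overnight control, though none passed the test. Cd2, an adhesion receptor of T cells, was at 2263 and 2085 in control and 508 and 688 in overnight control (-1.85 ± 0.38, adjusted p = 0.0927). Cd5, an inhibitory receptor whose level follows the strength of TCR signalling, was at 2652 and 2803 against 685 and 1327 (-1.50 ± 0.41, adjusted p = 0.224). Its relative Cd6 was at 3541 and 3383 against 1119 and 1998 (-1.20). The groups did not overlap for any of the 3 genes. Without overnight control array 1 the differences were -1.63 for Cd2 (adjusted p = 0.481) and -1.03 for Cd5 (adjusted p = 0.865). On the 4 other arrays the range was wide, 434 to 4291 for Cd2 and 870 to 5332 for Cd5. Itm2a, which rises on positive selection, was at 479 and 610 against 214 and 325 (-0.99), and Gata3, the transcription factor of CD4 lineage choice, at 797 and 944 against 412 and 580 (-0.81). Of 25 thymocyte maturation genes none passed, 5 were higher and 6 lower without overlap, and the median was -0.08.

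Early response genes of TCR signalling did not move together. Of 27 none passed, 8 were higher and 6 lower without overlap, and the median was 0.14. Nr4a1, the orphan receptor induced within the hour by TCR signals, was at 159 and 218 against 534 and 778 (1.70 ± 0.53, adjusted p = 0.323); without overnight control array 1 it differed by 1.97 (adjusted p = 0.591). On the 4 other arrays Nr4a1 ranged from 342 to 5184. Egr1, another immediate early factor, was lower, at 886 and 1043 against 765 and 648 (-0.44, adjusted p = 0.59). Dusp6, the ERK phosphatase that ERK activity itself induces, was at 470 and 377 against 98.9 and 167 (-1.59 ± 0.34, adjusted p = 0.0973). Fos differed by 1.00, Fosb by 1.06 and Atf3 by 1.30. Array 1 gave most of the difference of the last 2, with Fosb at 99.4 and 109 against 350 and 157 and Atf3 at 25.4 and 39.1 against 163 and 63.3. A second Atf3 probe set gave -0.14.

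Of 34 genes of the TCR signalling machinery and its coreceptors Ctla4 alone passed, and the median was 0.00. Without overlap 6 were higher and 6 lower (17.6% each, near the shares over all genes). Prkcq, the protein kinase C of the T cell synapse, was at 1215 and 920 against 540 and 650 (-0.82; -0.01 on a second probe set), and the phosphatase gene Ptpn6 at 816 and 863 against 323 and 590 (-0.92). Lag3, an inhibitory receptor that binds MHC class II, was at 119 and 89.5 against 358 and 260 (1.42 ± 0.35, adjusted p = 0.158). Lag3 was singled out after its values were seen.

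The genes that define the double positive stage did not pass. Of 23 tested, 4 were higher and 6 lower without overlap, and the median was 0.14 (-0.08 without overnight control array 2). Rag1 was at 5383 and 11121 in control and 14715 and 12491 in overnight control (0.81 ± 0.37, adjusted p = 0.551), so that the 2 control arrays differed more from each other than overnight array 2 did from control array 2. Rag2 was at 516 and 827 against 737 and 1185 (0.51), with overlapping groups. Dntt, which adds untemplated nucleotides at TCR junctions, was at 7682 and 9353 against 14723 and 12220 (0.66). Other Dntt probe sets gave 0.67 and 0.25. Satb1, a chromatin organiser of this stage, was at 5055 and 8777 against 12835 and 10167 (0.78). Cd8a was nearly level, at 6780 and 6947 against 6234 and 6105 (-0.15), and Cd4 overlapped, at 3591 and 2362 against 1986 and 3190 (-0.21; 0.13 without overnight control array 1). Ptcra, the invariant pre-TCR chain of the earlier stage, was at 79.4 and 182 against 103 and 176, a difference of 0.14 that turns to -0.10 under quantile normalization. Notch1 (-0.19) and Myc (-0.08) overlapped as well, and both turned positive without overnight control array 1 (0.40 and 0.44). A second Notch1 probe set gave 0.46 with all arrays. Il7r, the receptor chain that double positive cells lack and later cells regain, was dim, at 56.7 and 37.0 against 128 and 57.1 (0.72).

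Survival genes showed no call in either direction. Bcl2l1, whose product BCL-XL keeps double positive cells alive, was at 1557 and 1385 against 1536 and 1973 (0.24; -0.023 after scaling the arrays to a common median). Bcl2 was at 316 and 262 against 271 and 195 (-0.30), and its 2 other probe sets gave -0.62 and -0.48. Bcl2l11, which encodes the death inducer BIM, was at 882 and 885 against 1478 and 977 (0.44), with 0.61 and 0.58 on the 2 other probe sets. Casp9, the initiator caspase of the mitochondrial pathway, was at 83.9 and 95.9 against 204 and 143 (0.81). Other Casp9 probe sets gave 0.58 and 0.22. The kinase gene Pim1 differed by 0.69 on its brightest probe set and by -0.66 on another, and Akt1 by -0.72. Of 19 proapoptotic genes 3 were higher and 2 lower without overlap (median -0.02), and of 16 antiapoptotic genes 2 were higher and 3 lower (median -0.15; 0.07 without overnight control array 1). The tested p53 targets numbered 13, with 4 higher and 0 lower without overlap and a median of 0.22, among them Ccng1 (0.75) and Sesn1 (0.72). Cdkn1a, the p53 target that arrests the cycle, was level at 140 and 133 against 135 and 117 (-0.11). Of 19 growth arrest genes 6 were higher and 2 lower without overlap (median 0.14), and Cdkn2c, an inhibitor of CDK4 and CDK6 that dividing thymocytes express, was at 699 and 763 against 402 and 286 (-1.07).

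**Figure D2:**
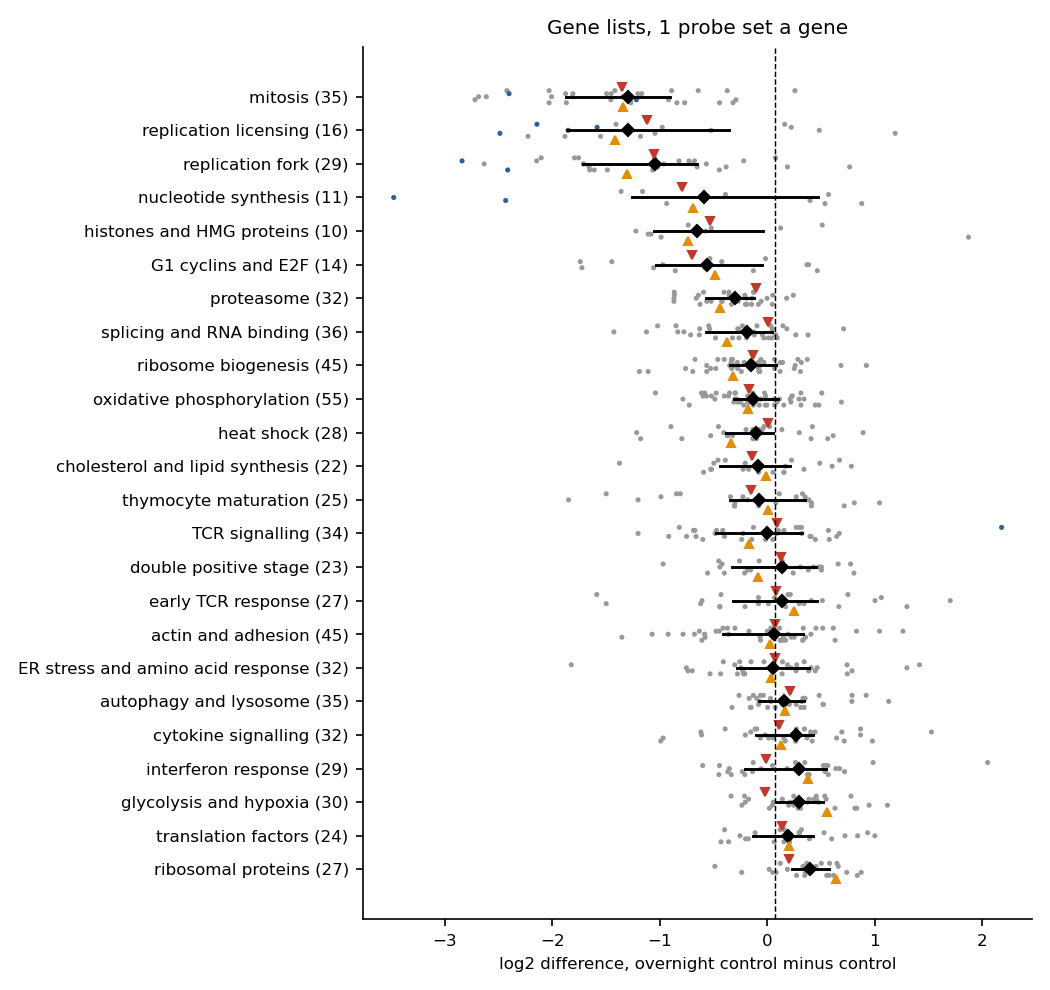
Log2 difference of each tested gene in 24 gene lists (grey, not called; blue, called), with the median (diamond) and the interquartile range (bar); the number of genes is in brackets. Triangles give the median without overnight control array 1 (red, pointing down) and without array 2 (orange, pointing up), and the dashed line is the median of all 6102 genes. Replication and mitosis genes lie at the far left and ribosomal protein genes at the right.

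Genes of protein synthesis and protein breakdown lay on opposite sides of the median of all genes, with no call in either list. Of 27 ribosomal protein genes, 20 were higher and 0 lower on both overnight control arrays, against 20.9% and 17.7% of all genes. Their median was 0.39, 0.32 above that of all genes. Rpl7 was at 7582 and 10406 against 13867 and 13412 (0.62), and Rps4x at 7854 and 9783 against 14499 and 11875 (0.58). Under quantile normalization the list lay 0.07 above all genes, and without overnight control array 1 its median was 0.20. Their probe sets can also read pseudogenes. Of 24 translation factor genes 10 were higher and 2 lower without overlap (median 0.19), with Naca, of the nascent chain complex, at 2402 and 2438 against 3715 and 3643 (0.60) and the initiation factor gene Eif3e at 297 and 396 against 574 and 688 (0.84).

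Proteasome genes were lower: of 32, 15 were lower and 1 higher without overlap, and the median was -0.30. Psmb6, a catalytic beta subunit, was at 1058 and 987 against 422 and 722 (-0.87), and the base ATPase Psmc1 at 747 and 767 against 277 and 599 (-0.86). Psmb5 differed by -0.87 on its brightest probe set and by 0.95 on another, and Psmb2 by -0.86. The Psmb2 difference rested on control array 1, with 1427 and 558 in control against 499 and 469, and was -0.20 without that array. Overnight control array 1 was lower than array 2 for Psmb6, Psmc1 and Psmb5, and without it the median of the list was -0.10. Of 36 splicing and RNA-binding genes 14 were lower and 2 higher without overlap, and the median of -0.19 was 0.00 without overnight control array 1. In that list Hnrnpd was at 1974 and 1966 against 774 and 1199 (-1.02), Cirbp, an RNA-binding protein induced by cold, at 1305 and 1161 against 535 and 947 (-0.77), and the kinase gene Clk1 the other way, at 2399 and 3324 against 4880 and 4402 (0.71).

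Ribosome assembly and respiration were also on the low side. Of 45 ribosome biogenesis genes 16 were lower and 5 higher without overlap (median -0.15), and the median changed little without overnight control array 1 (-0.13). Gar1, of the box H/ACA particles that modify ribosomal RNA, was at 1023 and 952 against 550 and 604 (-0.76), and the ribosomal RNA methyltransferase gene Fbl at 1065 and 791 against 554 and 586 (-0.67). Of 55 oxidative phosphorylation genes 23 were lower (41.8%) and 5 higher (9.09%) without overlap. The median was -0.13, and -0.17 without overnight control array 1. Cyc1 of complex III was at 3435 and 3509 against 1835 and 2981 (-0.57), while its second probe set gave 0.34. Uqcrq of the same complex was at 2328 and 1891 against 1373 and 1421 (-0.58).

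Chaperones and the stress responses had no call. Of 28 heat shock genes 9 were lower and 2 higher without overlap, and the median of -0.10 was 0.01 without overnight control array 1. Hsp90aa1, the inducible cytosolic HSP90, was at 2830 and 2853 against 1027 and 1514 (-1.18 ± 0.25, adjusted p = 0.0973). The mitochondrial chaperonin Hspd1 was at 2063 and 2011 against 556 and 1351 (-1.21). Without overnight control array 1 Hspd1 differed by -0.59, and its second probe set gave -0.37. Fkbp4, a cochaperone of HSP90, differed by -0.90, and by -0.31 on a second probe set. Hspa8, the constitutive HSP70, was at 904 and 1461 against 1455 and 1614 (0.41), with overlap. The 32 genes of the ER stress and amino acid responses held 9 higher and 4 lower genes (median 0.05). Psat1, an enzyme of serine synthesis, was at 610 and 540 against 147 and 153 (-1.82 ± 0.47, adjusted p = 0.176), and differed by -1.80 without overnight control array 1 (adjusted p = 0.539). Ddit3, the stress factor CHOP, was at 173 and 140 against 254 and 290 (0.74), and Hsp90b1, the HSP90 of the ER, at 1047 and 1047 against 623 and 619 (-0.74). Slc7a11, the cystine transporter, was dim, at 13.1 and 40.7 against 103 and 86.5 (1.42).

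Metabolic genes varied by gene. Cpt1a, which admits fatty acids to the mitochondrion, was at 343 and 426 against 721 and 868 (1.02 ± 0.23, adjusted p = 0.116), and the 4 other arrays went higher still, to 1318 to 1735. Scd2, a fatty acid desaturase, was at 1899 and 3603 against 875 and 1139 (-1.37 ± 0.31, adjusted p = 0.117), and its second probe set gave -0.95. Srebf1, the transcription factor of lipid synthesis, was at 1532 and 1482 against 937 and 1055 (-0.59). Of 22 cholesterol and lipid synthesis genes 6 were lower and 4 higher without overlap (median -0.08). Of 30 glycolysis and hypoxia genes 6 were higher and 1 lower (median 0.30), but without overnight control array 1 the median was -0.02. Ndrg1 of that list differed by 0.82, with 1.36 on a second probe set. Of 35 autophagy and lysosome genes 11 were higher and 0 lower (median 0.15; 0.21 without overnight control array 1). The LC3 relative Gabarapl1 was at 177 and 152 against 389 and 372 (1.13 ± 0.26, adjusted p = 0.121), Map1lc3b at 1155 and 1335 against 1712 and 1865 (0.52), and the kinase gene Ulk2 at 53 and 66.9 against 147 and 111 (0.92).

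Cytokine and interferon genes had no call. Of 32 cytokine signalling genes 10 were higher and 3 lower without overlap (median 0.27; 0.11 without overnight control array 1). Il10rb, a receptor chain shared by several cytokines, was at 259 and 142 against 464 and 338 (0.98). Of 29 interferon response genes 9 were higher and 4 lower, and the median of 0.30 was -0.01 without overnight control array 1. Rsad2, or viperin, was at 6.4 and 9.9 against 176 and 39.1 (2.05, adjusted p = 0.34), with most of the difference on array 1, whereas the GTPase gene Igtp was at 355 and 414 against 715 and 842 (0.99). Irf1 was lower, at 371 and 362 against 332 and 236 (-0.37). Of 15 MHC class I pathway genes 8 were higher and 2 lower (median 0.35; 0.08 without overnight control array 1), and the peptide transporter gene Tap2 was at 834 and 801 against 1312 and 1797 (0.90 ± 0.23, adjusted p = 0.171). Of 22 NF-kappaB targets 6 were higher and 3 lower (median 0.18), among them Ltb, the lymphotoxin that thymocytes send to the epithelium, at 3952 and 2941 against 6107 and 5065 (0.70). Glucocorticoid responsive genes numbered 18, with 7 higher and 3 lower (median 0.30), and clock genes 14, with 4 higher and 0 lower (median 0.20). Nr1d2 of the clock list was at 78.1 and 109 against 278 and 208 (1.24, adjusted p = 0.297).

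**Figure D3:**
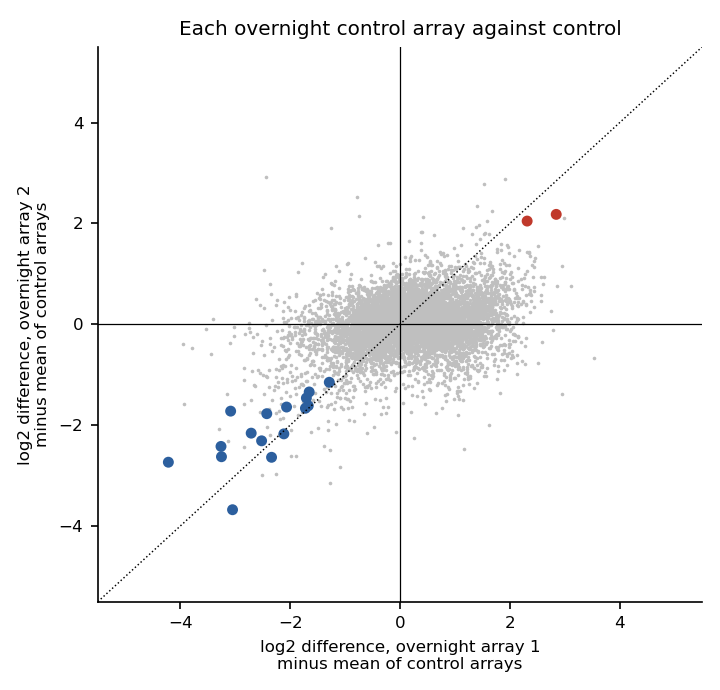
Log2 difference from the mean of the control arrays for overnight control array 1 (x axis) and array 2 (y axis), 1 point for each tested probe set, with the line of equality dotted. The 18 called probe sets (red for rises, blue for falls) were chosen on both arrays and lie where both differences have the same sign. The cloud of uncalled probe sets is wider along the array 1 axis.

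The 2 overnight control arrays did not weigh equally in these differences. Over the 2034 dimmest of the 6102 genes the median difference was 0.29, and it was 0.04 without array 1 and 0.59 without array 2. Over the 2034 brightest the values were -0.06, 0.00 and -0.15. The marker lists of other cell types, with many dim genes, went with this shift. Each of them had a higher median without array 2 than without array 1. Without array 2 their medians ran from 0.62 (erythroid cells) to 1.30 (granulocytes). Without array 1 the median of all genes was 0.03. The medians of the marker lists then ran from -0.34 (fibroblasts and endothelium) to 0.58 (NK and gamma delta T cells, 5 genes tested). The summed signal of 14 B cell markers was 5135 and 4421 in control and 6214 and 4779 in overnight control, and that of the 13 other than the bright Ighm was 645 and 938 against 1726 and 1080. That of 17 macrophage and monocyte markers was 711 and 944 against 1653 and 949, and that of 13 granulocyte markers 497 and 729 against 1779 and 806. The sum of 14 dendritic cell and MHC class II markers was 1402 and 1447 against 3146 and 1355, and of 12 thymic epithelial markers 1189 and 1349 against 2932 and 1810. Ctsl alone, at 821 and 849 against 1961 and 1077, made up most of the thymic epithelial sum. Markers of NK and gamma delta T cells summed to 632 and 694 against 1575 and 959. Gzma, described above, gave 183 and 224 against 590 and 495 of these sums. The higher sum on overnight control array 2 thus rested largely on Gzma. Erythroid markers summed to 969 and 713 against 1533 and 1111, and those of fibroblasts and endothelium to 11730 and 9786 against 11527 and 8256. Thy1, which thymocytes express, made up most of that last sum, and the 17 other markers summed to 1066 and 993 against 2297 and 789. No marker of these lists was at 0 on any of the 4 arrays, but without detection calls a signal above 0 does not show expression. H2-Aa (10 and 12.5 against 18.8 and 10) and Lyz2 (5.2 and 2.4 against 9.2 and 4.7) were at the bottom of the scale. Array 1 was the higher overnight control array in each of these lists. The part of other cells, of the 3′ to 5′ ratio and of scaling in the differences was not tested.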

How the data were processed

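Per the labels, the deposited values are normalized, and they are linear signal intensity values with 1 column per array; the labels do not name the normalization method, and every array had a 2% trimmed mean of about 250.1. The files held no detection calls. The 66 control probe sets were left out of 12488, leaving 12422, and the dimmest 33.3% by mean signal were dropped, leaving 8281. Signals were tested as log2(signal + 17), where 17 is the 20th percentile of all signals, with limma 3.58.1 in R 4.3.3, group means fitted on all 8 arrays (4 residual and 6.44 prior degrees of freedom), eBayes with a trend and Benjamini-Hochberg adjustment. The fit was checked on simulated data. Probe sets took gene names from the platform annotation: 10833 carried 1 symbol, of which 10817 matched a RefSeq gene, 396 several and 1193 none, and the last 2 kinds were not named. In lists a gene was read from its brightest tested probe set.

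The comparison, the lists and the rule for named genes were chosen with earlier results of these data known. The rule names probe sets that passed without overlap, up to 14 each way, replication and mitosis genes being kept to examples; where under 6 passed, those of smallest p up to 8; up to 4 genes of smallest p per direction in each list; and a fixed set of 24 thymocyte genes, of which Cd69, Ccnd2, Hspa1b and Klf2 were not among the tested, singly named probe sets. Other list genes are named with their values. The array numbers were checked as pairs: deviations of equally numbered control and overnight control arrays correlated at r = 0.109 over probe sets, and the 6 pairs of groups gave 0.104 to 0.347. With 2 numbers whose meaning the labels do not give, and array 1 of 3 groups sharing a raised 3′ to 5′ ratio, they were not treated as pairs. Alternatives were quantile normalization, scaling to a common median, other offsets and filters, no trend, the number as a block, fewer arrays, and each array left out.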

Additional observations from a re-analysis of the deposited data

How the results depend on the processing

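All values rest on 2 arrays a group, and for probe sets near the offset of 17 the difference is bounded by background. The count of 18 was 10 under quantile normalization (0 up), 35 with only the 4 arrays compared, 84 without the 3 arrays of raised 3′ to 5′ ratio (1 overnight control array, spread from the control pair), and 0 (limma) without the trend, where 18 genes and probe sets named here lost their call; 749 tested probe sets had an unadjusted p under 0.05 in the fit with all arrays. With 1 array left out it ran from 0 to 123: 0 without overnight control array 1, control array 1 or control array 2, and 123 without overnight control array 2. With the array number as a replicate block it was 107 (15 up, 92 down), including all 18, and 26 further genes of those examined passed, among them Cd2 (adjusted p = 0.0158), Cd5 (0.031), Mki67 (0.00708), Nr4a1 (0.0356), Rasa4 (0.0239) and Socs3 (0.031). The other alternatives gave 13 to 19 calls. Rises ran from 0 to 31 and falls from 0 to 92 with 1 array left out. Reversed values were, on the log2 scale, Bcl2l1 -0.023 and Ptcra -0.084 under the common median, Ptcra -0.10 under quantile normalization, and Cd4 0.13, Myc 0.44 and Notch1 0.40 without the 3 arrays. With 1 array left out, the signs of Cd4 (-0.55 to 0.13), Myc (-0.60 to 0.44), Notch1 (-0.79 to 0.40) and Ptcra (-0.38 to 0.66) changed. The causes were not tested.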

Other observations

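Genes of migration, redox defence and transport had no call either. Of 15 homing and migration genes 4 were higher and 0 lower without overlap (median 0.33). Of 16 Notch pathway genes 2 were higher and 1 lower (median 0.15), and Notch2 was at 25.6 and 98.1 in control and 352 and 141 in overnight control (1.78, adjusted p = 0.40), with 0.61 on a second probe set. Of 31 oxidative stress and metal genes 5 were higher and 5 lower (16.1% each, near the shares over all genes, median 0.04). Prdx4, a peroxiredoxin of the secretory pathway, was at 137 and 206 against 15.8 and 74.7 (-1.76, adjusted p = 0.261), and Gsto1, a glutathione transferase, at 24.2 and 15.8 against 101 and 55.8 (1.33). Of 21 genes of solute transport and fatty acid handling 7 were higher and 5 lower (median 0.11), and the fatty acid binding protein gene Fabp5 was at 161 and 105 against 60.7 and 22.7 (-1.40, adjusted p = 0.486).
The probe set that fell without a gene name went from 8857 and 7341 to 2434 and 2533 (-1.69 ± 0.21, adjusted p = 0.0191), and the 4 Valpha2 and Vbeta5 arrays gave 2266 to 4317. This probe set is of the same class as that of Tuba1a and can also read related family members.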
